A study of Mus musculus with 24 samples.

Results

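The mitochondrial ribosome is followed here at the RNA level through 82 nuclear genes. They are the protein-coding genes whose symbols name a large-subunit (Mrpl) or small-subunit (Mrps) protein of that ribosome, plus the translation factor genes Gfm1, Gfm2, Tufm, Tsfm, Mtif2 and Mtif3. Of 37606 genes in the count table, 48 were large-subunit, 28 small-subunit and 6 translation factor genes. The rule goes by gene symbol and type and uses no measured value, but it was set with earlier results of these data known. They lie on 17 chromosomes, and chromosome 11 holds 11 of them. All 82 were kept by the filter on low counts in every comparison, with 66 to 4865 reads per gene and library.

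RNA came from homogenates of mouse aorta. All mice were labelled wild type. For 2 weeks an osmotic minipump under the skin had released either vehicle (sham) or angiotensin II (Ang II), a pressor peptide of the renin system. Aortas were collected 2, 4 or 6 months afterwards, which gives sham and Ang II groups at each time and 6 groups of 4 libraries. Sex, age and strain were not analysed here. The labels number the replicates without saying that they are separate animals, so each p-value reflects the spread among the libraries of a group, and that spread may be technical. The series concerns the receptor Axl in damage after hypertension. The times ask what a past episode of high blood pressure leaves in the aorta.

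Mitochondria carry their own small genome, whose messenger RNAs encode core subunits of the respiratory chain and of ATP synthase. These messengers are read inside the organelle by a dedicated ribosome that descends from a bacterial one. Its RNA is made from the mitochondrial genome, while all of its proteins and its initiation and elongation factors are encoded in the nucleus, made in the cytosol and imported. Tissues with many mitochondria, such as heart, red muscle and brown fat, which surrounds the thoracic aorta of mice, express these genes at high levels.

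Total counts lay between 19163673 and 58676098 reads per library. Transcripts of the mitochondrial chromosome took 31.75% to 59.31% of the counts at 6 months and 7.72% to 16.32% before. Time and this difference between the libraries cannot be told apart between 6 months and earlier. Aortic markers were present in every library: Acta2, smooth muscle actin, lay between 113 and 3272 CPM (read counts divided by a scaled library size, with the scaling taken over all 24 libraries), and Pecam1, an endothelial adhesion molecule, between 126 and 267 CPM. Tagln, of the same smooth muscle list as Acta2, lay only between 1.05 and 12.5 CPM. Markers of other tissues were present too. The general adipocyte list summed to 7672 to 33453 CPM per library, against 602 to 6412 CPM for the smooth muscle list. The brown adipocyte list (10 genes, among them Ucp1, the uncoupling protein, at 148 to 2586 CPM) had no gene with 0 reads in any library. Elovl3 and Cpt1b of that list were low, at 0.0996 to 8.30 CPM and 0.369 to 4.34 CPM. The airway epithelium list (10 genes) summed to over 1000 CPM in 6 of the 16 earlier libraries and in 7 of 8 at 6 months. Ang II replicate 4 at 6 months stood apart: Lars2, a mitochondrial tRNA synthetase gene, took 3.60% of its counts and at most 0.110% in every other library. In homogenates, fewer cells of a type and less RNA per cell cannot be told apart.

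Since the genes are scattered over the genome and are known to be regulated together, their promoters are shown first. RefSeq promoters (build GRCm38.p6, 250 bases before to 50 after the gene start) matched 72 of the 82 genes, and 3 genes had several listed starts. In capitals are matches, on either strand, to 3 motifs that recur in nuclear genes for mitochondrial proteins: CCGGAAGT, bound by the ETS factor GABPA; GCGCANGCG, bound by NRF1; and AAGATGGCG, bound by YY1. Each stretch runs 5′ to 3′ on the gene's strand from 100 bases before the start to 20 after it. Gfm1 and Tufm, elongation factor genes, are shown because both carry the ETS letters across the start, and Mrps22, for a protein with no bacterial counterpart, carries them just upstream.
Gfm1: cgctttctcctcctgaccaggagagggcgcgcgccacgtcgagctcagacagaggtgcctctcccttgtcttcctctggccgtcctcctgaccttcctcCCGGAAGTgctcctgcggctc
Tufm: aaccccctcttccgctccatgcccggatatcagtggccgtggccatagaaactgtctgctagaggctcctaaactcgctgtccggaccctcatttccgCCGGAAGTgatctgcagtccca
Mrps22: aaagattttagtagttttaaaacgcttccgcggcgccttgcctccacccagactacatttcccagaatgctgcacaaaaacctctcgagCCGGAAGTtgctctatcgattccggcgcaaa
Their positions are chr3:67430015-67430134 (plus strand), chr7:126487255-126487374 (plus) and chr9:98601660-98601779 (minus).

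The NRF1 letters lie farther upstream in Mrpl12 and Mrps21, and the YY1 letters in Mrpl36, shown as examples of the other motifs.
Mrpl12: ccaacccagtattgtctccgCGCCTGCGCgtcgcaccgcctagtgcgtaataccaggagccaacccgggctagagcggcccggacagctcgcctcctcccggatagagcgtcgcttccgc
Mrps21: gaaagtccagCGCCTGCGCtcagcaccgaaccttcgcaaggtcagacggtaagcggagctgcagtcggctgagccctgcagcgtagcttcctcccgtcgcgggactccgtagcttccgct
Mrpl36: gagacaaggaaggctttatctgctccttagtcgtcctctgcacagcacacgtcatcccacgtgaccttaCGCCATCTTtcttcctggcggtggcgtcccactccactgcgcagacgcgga
These are chr11:120484537-120484656 (plus), chr3:95871495-95871614 (minus) and chr13:73330909-73331028 (plus).

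Over the full 300 bases, the ETS letters were found in 14 of 72 genes (19.4%) against 4.31% of all 27025 genes with a promoter in the table. The NRF1 letters were found in 17 of 72 (23.6%) against 7.03%, and the YY1 letters in 8 of 72 (11.1%) against 1.64%. At least 1 of the 3 stood in 37 of 72 (51.4%) against 11.9%, and 2 promoters held more than 1 kind, with no overlap between matches. Of the ETS matches, 10 of 14 began within 50 bases of the start, as did 7 of 8 YY1 matches and 8 of 17 NRF1 matches. The median position of the first base was -17 for ETS, -57 for NRF1 and 19.5, after the start, for YY1. The YY1 match shown for Mrpl36, at -31, thus lies on the other side of the start from that median. A match is a run of letters, not a bound site. For Ang II against sham at 4 months, described below, genes with and without the ETS letters had median log2 fold changes of -0.27 and -0.24. These were -0.20 and -0.26 with and without the NRF1 letters, and -0.26 and -0.25 for the YY1 letters.

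Per kilobase of principal transcript, the level averaged over the 16 libraries at 2 and 4 months spanned 4.96 to 153 CPM per kilobase, with a median of 28. The highest were the large-subunit genes Mrpl30 (153), Mrpl42 (129) and Mrpl34 (126), the small-subunit gene Mrps21 (115) and Mrpl52 (84.2). The lowest were Mrpl19 (4.96), Mrps25 (5.82), Mrpl1 (6.88), Mtif3 (7.34) and Mrpl47 (7.82). Exons of Mrps25 share 69.8% of their bases with Nr2c2, and those of Mrpl19 share 36% with Gcfc2, both on the opposite strand. Reads of Mrps25 and Mrpl19 could thus be split or shared in the counting, and the part of this in their low levels was not tested. The median per kilobase was 32.7 for the large subunit, 23.2 for the small subunit and 17.0 for the factors. The length matters for these ranks: with the union of all annotated exons in its place, 2 of the top 5 and 2 of the bottom 5 remained.

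Among the factors, the level per kilobase was highest for Tufm, whose product EF-Tu delivers charged tRNAs to the ribosome (79.0; 57.2 to 108 over 16 libraries). It was followed by Tsfm, the exchange factor that recharges EF-Tu (28; 19.3 to 37.8), and Gfm1, elongation factor G, which moves the ribosome along the message (20.2; 14.9 to 26.2). Next came the initiation factor gene Mtif2 (13.7; 10.6 to 17.4) and Gfm2, a factor of ribosome recycling (12.4; 9.57 to 15.8). Mtif3, which keeps the subunits apart before initiation, was lowest (7.34; 5.92 to 9.09). The ranges of neighbours in this order overlapped except for Tufm above Tsfm and Gfm2 above Mtif3. Exons of Mtif3 share 29.4% of their bases with Gtf3a on the opposite strand, so that its reads could be split or shared in the counting.

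The paralogous genes Mrps18a, Mrps18b and Mrps18c descend from 1 bacterial protein gene. Mrps18a, whose product sits in the large subunit despite its symbol, stood at 59.6 CPM per kilobase, Mrps18c at 23.1 and Mrps18b at 14.1. The range of Mrps18a over the 16 libraries (40.9 to 75.7) lay above those of Mrps18c (18.1 to 29.1) and Mrps18b (10.5 to 22.4), which overlapped. Exons of Mrps18b share 30.5% of their bases with the antisense gene Gm16279, and those of Mrps18c share 23.2% with Gm43511 on the same strand.

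Summed over all 82 genes, the 2-month sham libraries, in the order of their replicate numbers, reached 3713, 3165, 3607 and 4262 CPM, and the Ang II libraries 3740.4, 2745, 3806 and 3873 CPM. At 4 months it was 4172, 4570.2, 4450.3 and 3780.2 CPM in sham and 3524, 3458, 3636 and 3263 CPM in Ang II. At 6 months it was 1846, 1696, 1834 and 2004 CPM in sham and 1680.4, 2203, 2187 and 1600.3 CPM in Ang II. The groups overlapped at 2 and 6 months. At 4 months every Ang II library lay below every sham library, and each library at 6 months lay below each earlier one.

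**Figure D1:**
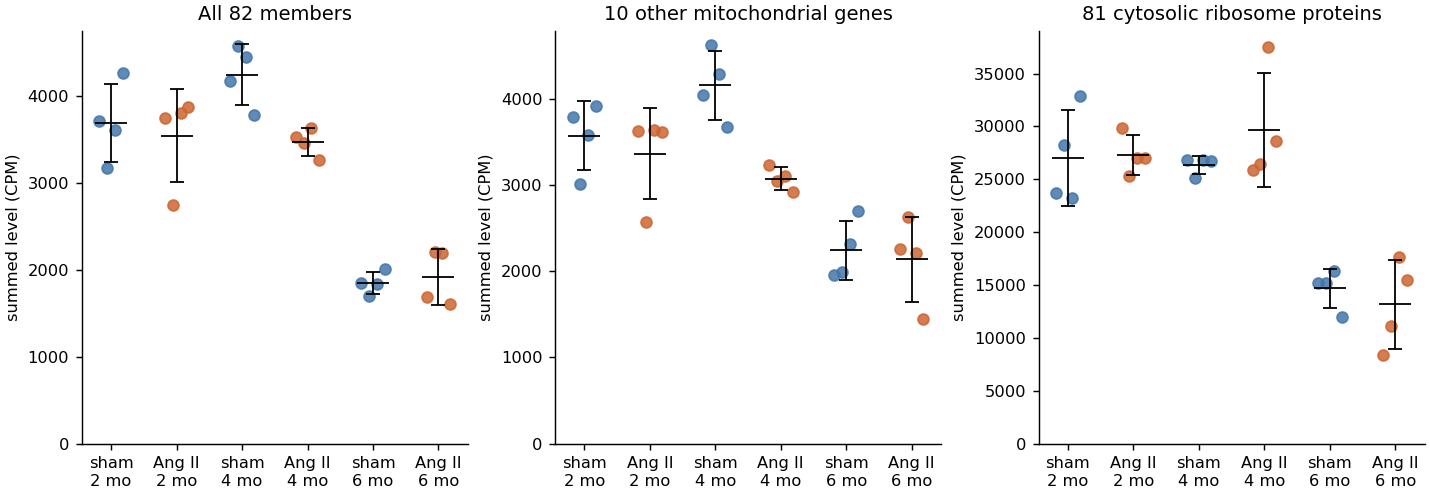
Summed level in CPM (vertical axis) of the 82 genes, of 10 other nuclear genes for mitochondrial proteins and of 81 cytosolic ribosome protein genes in each of the 24 libraries (points; blue sham, orange Ang II); bars give the mean and SD of 4 libraries. The 4 Ang II libraries at 4 months (3263 to 3636 CPM) sit below the 4 sham libraries (3780.2 to 4570.2 CPM) in the left panel, while the cytosolic genes overlap.

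The subunits kept close proportions. The ratio of the summed large-subunit to the summed small-subunit level lay between 1.94 and 2.07 in all 16 libraries at 2 and 4 months, while the sums themselves varied from 1672 to 2773 CPM and from 825 to 1366 CPM. At 6 months the ratio was 2.15 ± 0.0548 in sham and 2.11 ± 0.0908 in Ang II (SD, n = 4), and the 4 sham ratios (2.09 to 2.22) lay above all 16 earlier ones. The small-subunit sum holds Mrps18a and Mrps36, which belong there by symbol only. With Mrps18a counted in the large subunit and Mrps36 left out, a choice made after seeing the data, the ratio was 2.18 to 2.37 in the 16 earlier libraries and 2.29 to 2.41 in sham at 6 months, and these ranges overlapped.

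At 2 months 0 of the 82 genes differed between Ang II and sham at an adjusted p under 0.05 (edgeR quasi-likelihood fit, adjusted over all genes), where 297 of 16421 genes (1.81%) did. The smallest unadjusted edgeR p of the 82 was 0.134. DESeq2 called 0 of them, a count given here without its share over all genes. The median log2 fold change was -0.03, against 0.01 over all genes, and 51 of 82 values were below 0. The smallest p values upward belonged to Mrpl11 (40.8, 41.0, 39.3 and 39.8 CPM in sham; 43.7, 36.2, 46.1 and 50.4 in Ang II), Mrps34 and Mrps10, with log2 fold changes of 0.15, 0.18 and 0.15. Downward they belonged to Mrps2, Mrpl4 and Mrpl48, with -0.23, -0.16 and -0.12. Their edgeR adjusted p lay between 0.667 and 0.805, and the groups overlapped for all 6. Exons of Mrps34 share bases with Nme3 on the same strand and Mapk8ip3 on the other (37.0% and 63.4% of its exon bases).

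The factors did not pass at 2 months either. Gfm1 was 87.4, 68.3, 86.2 and 107 CPM in sham and 92.3, 60.8, 82.9 and 75.9 CPM in Ang II (log2 fold change -0.14, SE 0.158, edgeR adjusted p = 0.878). Tufm, Gfm2, Tsfm, Mtif2 and Mtif3 had log2 fold changes from -0.12 to 0.10. For the 82 genes, single libraries stood out more than the groups. Ang II replicate 2 was the lowest of the 8 libraries for 77 of 82 genes and sham replicate 4 the highest for 47. Without Ang II replicate 2 the median became 0.07 and 17 values were below 0, and without sham replicate 4 the median was 0.05. Ang II replicate 2 had 1312 CPM of airway and 1518 CPM of brown adipocyte markers, and their part in its low level was not tested. Sham replicate 4 had the lowest brown adipocyte sum of its group (1917 CPM against 2058 to 3452) and the highest sum of the 82 genes. Some tissue markers did differ between the groups at 2 months. Smooth muscle sums were 3435 to 6412 CPM in sham and 913 to 1751 CPM in Ang II. Erythroid sums were 184 to 456 CPM in sham and 49.8 to 154 CPM in Ang II. The sums of the other cell-type lists overlapped, and the part of these differences was not tested.

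At 4 months the mitochondrial ribosome genes were lower in Ang II than in sham aortas as a body, by small amounts. Of 82 log2 fold changes, 81 were below 0, with a median of -0.25 (16% lower), while the median of all 16127 genes tested was 0.04. Gfm1 fell and was the only 1 of the 82 past the edgeR threshold, at which 91 of the 16127 genes (0.564%) were lower and 114 (0.707%) differed in either direction. For 33 of 82 genes each Ang II library lay below each sham library, against 6.19% of all genes, and for 0 the reverse held. At an unadjusted p under 0.05 there were 47 of the 82, against 15.5% of all genes.

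Gfm1 (ENSMUSG00000027774.16, chromosome 3, 67430096 to 67476529, build mm10) was 98.5, 101, 101 and 93.4 CPM in sham and 65.7, 66.7, 65.9 and 64 CPM in Ang II. The groups were far apart relative to their spread (98.5 ± 3.62 and 65.6 ± 1.14 CPM, SD, n = 4). The log2 fold change was -0.57 (SE 0.0582, edgeR adjusted p = 0.0166). The authors' deposited table gives Gfm1 a log2 fold change of -0.58 at 4 months. The edgeR call was lost when any 1 library other than sham replicate 4 was left out (adjusted p from 0.0616 to 0.0928), with log2 fold changes from -0.59 to -0.55.

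The other elongation factors lay lower as well but did not pass. Tufm was 133, 181, 164 and 147 CPM in sham and 108, 115, 114 and 113 CPM in Ang II (log2 fold change -0.45, SE 0.100, edgeR adjusted p = 0.0788). Tsfm was 36.3, 41.7, 45.6 and 34.9 CPM in sham and 31.5, 30.6, 28.2 and 28.8 CPM in Ang II (-0.39, SE 0.102, edgeR adjusted p = 0.120). For both, each Ang II library lay below each sham library. Gfm2 behaved alike, at 41.0, 48.1, 40.7 and 43.1 CPM in sham and 33.8, 35.4, 36.8 and 32.6 CPM in Ang II (-0.30, SE 0.0773, edgeR adjusted p = 0.118).

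The initiation factor genes did not pass. Mtif2 was 44.2, 44.6, 44.9 and 32.9 CPM in sham and 31.9, 32.0, 31.8 and 30.1 CPM in Ang II (-0.38, SE 0.105, edgeR adjusted p = 0.133). Sham replicate 4 lay close to the Ang II libraries, just above them on this scale and among them when scaled over the 4-month libraries alone. Mtif3 differed least of the 6 (-0.13, SE 0.107, edgeR adjusted p = 0.563). The median over the 6 factors was -0.39, against -0.24 for each subunit.

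Among the ribosome proteins the smallest p belonged to Mrpl34 and Mrpl38. Mrpl34, the counterpart of bacterial protein L34, was 94.9, 111, 104 and 81.6 CPM in sham and 71.8, 64.3, 67.2 and 64.4 CPM in Ang II (-0.53, SE 0.0998, edgeR adjusted p = 0.0604). Mrpl38, a protein of the large subunit's central protuberance, was 75.7, 77.3, 78.6 and 72.2 CPM in sham and 63.0, 58.6, 59.8 and 59.8 CPM in Ang II (-0.31, SE 0.0593, edgeR adjusted p = 0.0607). For both genes the groups did not overlap. Mrps36, named for its size of change after its values were seen, had -0.53 (edgeR adjusted p = 0.0765). Its product is also known as a subunit of the alpha-ketoglutarate dehydrogenase complex.

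Both subunits took part: 47 of 48 large-subunit and 28 of 28 small-subunit values were below 0, and 21 and 8 of them had groups that did not overlap. The only value above 0 was that of Mrpl52 (36.7, 35.5, 33.2 and 32.6 CPM in sham, 34.1, 33.7, 41.4 and 34.5 CPM in Ang II; 0.08, SE 0.0773, edgeR adjusted p = 0.646). In the Mrps18 trio the values were -0.25 for Mrps18a, -0.11 for Mrps18b and -0.09 for Mrps18c, and none passed (edgeR adjusted p = 0.281, 0.692 and 0.684).

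**Figure D2:**
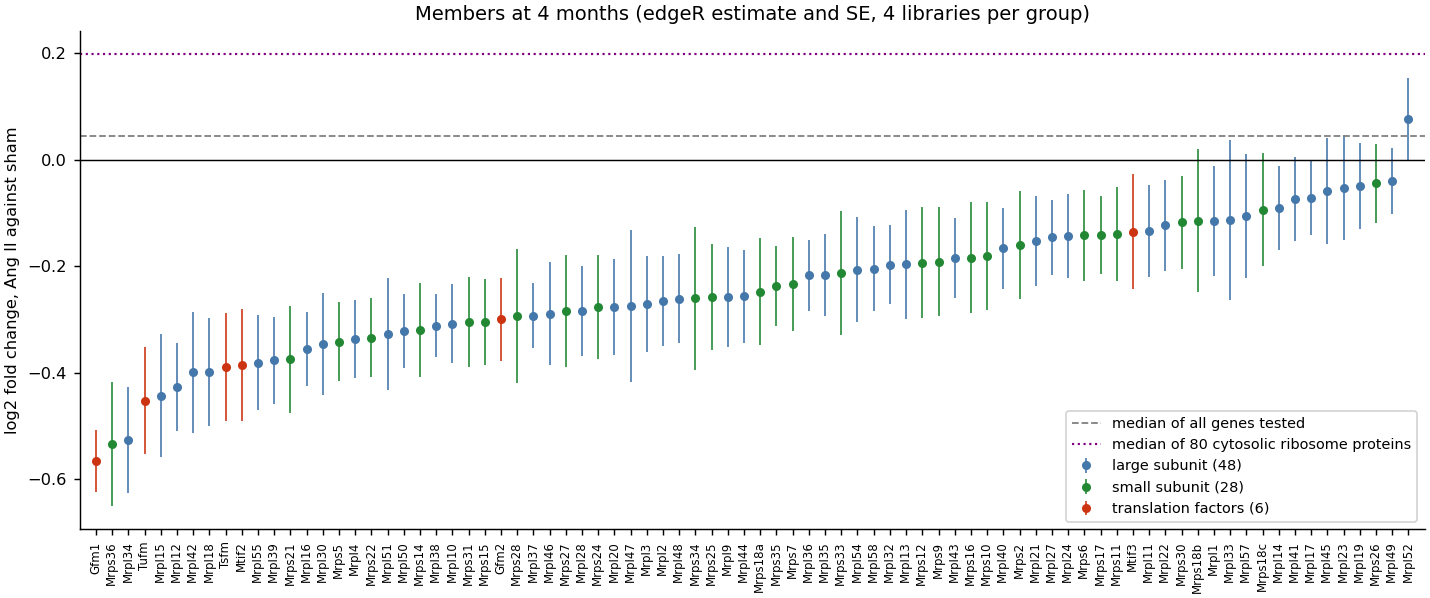
Log2 fold change of Ang II against sham at 4 months (vertical axis, edgeR estimate with its SE) for each of the 82 genes in order of value, coloured by group; dashed and dotted lines give the medians of all genes tested (0.04) and of 80 cytosolic ribosome protein genes (0.20). All genes but Mrpl52 lie below 0, and Gfm1 is lowest at -0.57.

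The number of calls at 4 months depended on the tool. DESeq2 called 27 of the 82 genes, all lower, and limma voom 18, all lower and all among the 27, where they called 4.54% and 2.75% of all genes lower. The authors' deposited table also holds 27 at an adjusted p under 0.05, the same 27 genes, with log2 fold changes from -0.58 to -0.30, where it calls 4.39% of its genes lower. Without sham replicate 4, edgeR called 28 lower, 23 of them among those 27, where 3.34% of all genes were called lower.

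Markers of some other cell types moved the same way at 4 months. The 10 brown adipocyte markers had log2 fold changes below 0 in 10 of 10 cases (median -0.73, none passing). They summed to 5211, 5743, 4889.8 and 2226 CPM in sham and 2350.3, 2366, 2279.6 and 2447 CPM in Ang II replicates. Sham replicate 4 thus lay with the Ang II libraries in this sum, and it was also the lowest sham library in the sum of the 82 genes. With the brown adipocyte score as covariate the median of the 82 was -0.13, with 70 below 0, and 0 of them and 0 of all genes passed (15 and 1422 at an unadjusted p under 0.05). Gfm1 then had -0.51 (edgeR adjusted p = 0.102) and Mrpl34 -0.33. Skeletal muscle and cardiac muscle markers also had values below 0 in 8 of 8 and 6 of 6 cases (medians -0.84 and -0.84, none passing). Their sums overlapped between the groups. Skeletal muscle sums were 97.2 to 9293 CPM in sham and 245 to 3230 CPM in Ang II. Cardiac muscle sums were 596 to 3232 CPM and 706 to 1907 CPM. Smooth muscle, the main cell type of the aortic wall, had 9 of 9 markers below 0 (median -0.60, none passing), with sums of 757 to 2541 CPM in sham and 602 to 980.1 CPM in Ang II. Erythroid markers had 5 of 5 below 0 (median -1.48, none passing), with sums of 425 to 1489.9 CPM and 186 to 473 CPM. Not every list lay clearly lower. General adipocyte sums averaged 29023 CPM in sham and 29057 CPM in Ang II. Mean endothelial sums were 664 and 639 CPM, and mean fibroblast sums 802 and 925 CPM. The part of these markers in the result was not tested.

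**Figure D3:**
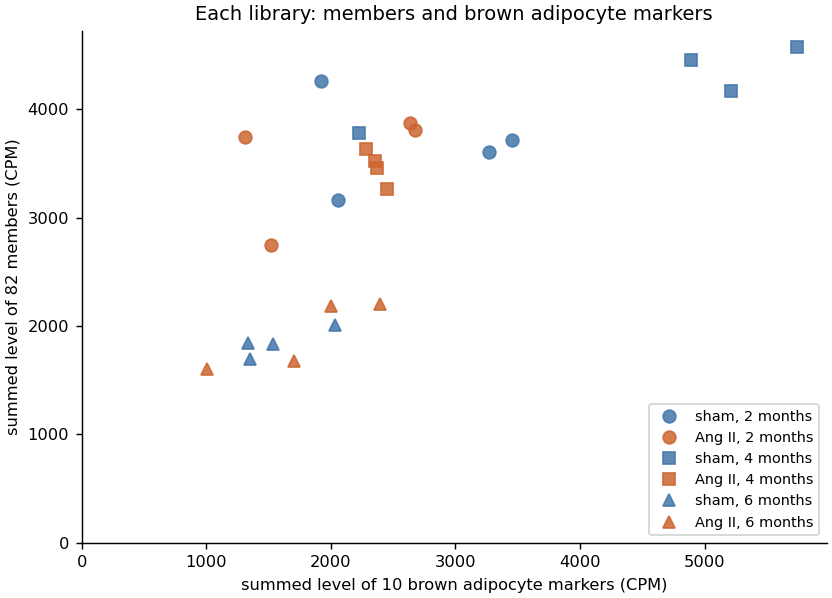
Summed level of the 82 genes (vertical axis, CPM) against that of 10 brown adipocyte markers (horizontal axis, CPM) in each library; colour gives treatment and shape the time. Sham replicates 1 to 3 at 4 months stand at the upper right (4889.8 to 5743 CPM of markers), sham replicate 4 next to the Ang II libraries of that time, and the 6-month libraries lie lower (1600.3 to 2203 CPM of the 82 genes).

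Airway markers were unevenly spread as well: sham replicate 2 (1410.2 CPM) and Ang II replicates 2 and 4 (5351 and 3499 CPM) exceeded 1000 CPM at 4 months, and the others held 5.71 to 294 CPM. Without those 3 libraries the median of the 82 was -0.19, 73 values were below 0, and no gene of the 82 or of all genes passed (12 and 778 at an unadjusted p under 0.05). Gfm1 then had a log2 fold change of -0.57 and did not pass (edgeR adjusted p = 0.970). Macrophage markers lay higher in Ang II at 4 months (median 0.94), and Cd68, a lysosomal protein of macrophages, rose (1.76, SE 0.140, edgeR adjusted p = 0.0134).

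Other genes of mitochondrial translation also had values mostly below 0 at 4 months. In the list of release, recycling and start factors 1 of 7 fell: Guf1, the factor that moves stalled ribosomes back (-0.45, SE 0.0741, edgeR adjusted p = 0.0460), with a list median of -0.09. The 6 mitoribosome proteins with other names, such as Dap3, had a median of -0.19 with 6 of 6 below 0. The 20 mitochondrial tRNA synthetases and amidotransferase subunits had -0.24 (18 below 0), the 26 assembly factors -0.12 (23) and the 10 tRNA-modifying enzymes -0.11 (9). For mitochondrial transcription and genome upkeep it was -0.30 (13 of 13). None of these passed besides Guf1.

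The 10 genes that report the amount of mitochondria, such as Cs (citrate synthase) and the porins, had a median of -0.28 with 10 of 10 below 0 and none passing. The summed level of the 82 genes relative to this list was 0.987 to 1.04 in sham and 1.09 to 1.17 in Ang II libraries at 4 months. It lay between 0.980 and 1.09 in the 8 libraries at 2 months. The 13 messengers of the mitochondrial chromosome had a median of -0.39 (10 below 0, none passing). Cytosolic ribosome proteins went the other way, with a median of 0.20 and 5 of 80 below 0, none passing. The 82 genes therefore summed to 14.1% to 18.2% of the cytosolic ribosome protein level in sham and 9.69% to 13.6% in Ang II libraries at 4 months, without overlap. Of the regulators, none of 9 passed (median -0.11), with Esrra, a receptor that drives mitochondrial genes, at -0.66 (edgeR adjusted p = 0.0961).

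At 6 months 0 of the 82 genes passed, where edgeR called 0 of 19343 genes (0.0%; 976 at an unadjusted p under 0.05, and DESeq2 63 with none of the 82). None of the 82 reached an unadjusted p under 0.05. The median was 0.06, against -0.03 over all genes, with 24 below 0. The smallest p upward belonged to Mrps36 (12.9, 9.04, 12.7 and 16.1 CPM in sham; 13.1, 18.5, 18.2 and 16.4 CPM in Ang II), Mrps18a and Mrpl42 (log2 fold changes 0.39, 0.22 and 0.32). Downward it belonged to Mrpl32, Mrps6 and Tufm (-0.18, -0.14 and -0.10). Gfm1 was 51.8, 52.4, 54.3 and 70.5 CPM in sham and 56.3, 70.8, 67.9 and 42 CPM in Ang II (0.05, SE 0.179, edgeR adjusted p = 0.9997). The groups overlapped for each of the 82 genes (share over all genes not given), and Ang II replicates 1 and 4 were the lowest library for 29 and 39 of them. Without replicate 4, the library with high Lars2, the median was 0.13 with 5 below 0, and again 0 of the 82 and 0 of all genes passed. Skeletal muscle markers had values above 0 in 8 of 8 cases (median 3.64, none passing), and their part was not tested.

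Over 2 and 4 months together, with the month as a term, 0 of the 82 passed, where 157 of 17153 genes (0.915%) did. At an unadjusted p under 0.05 there were 19 of the 82, against 15.1% of all genes, and 9 (without Ang II replicate 2 at 2 months or Ang II replicate 4 at 4 months) to 36 (without sham replicate 2 at 2 months) when 1 library was left out. The median was -0.13 and 77 values were below 0. Nearest to the threshold were Mrpl4 (-0.25, SE 0.0664, edgeR adjusted p = 0.0823), Gfm1 (-0.36, SE 0.101, edgeR adjusted p = 0.101) and Tufm (-0.29, SE 0.101, edgeR adjusted p = 0.181). Mrpl4 was 81.7, 67.0, 82.1 and 85.3 CPM in sham and 68.4, 59.9, 76.6 and 74.0 CPM in Ang II at 2 months, with overlap. At 4 months it was 90.5, 99.0, 96.1 and 82.5 CPM in sham and 68.4, 71.8, 72.6 and 74.5 CPM in Ang II, without overlap. The 3 highest values of this comparison, Mrpl45, Mrpl52 and Mrps26, were all 0.02. DESeq2 called 2 of the 82, both lower, where it called 2.37% of all genes lower.

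Whether the Ang II effect differed between times was tested directly, over all 24 libraries, those at 6 months included. None of the 82 passed, where 103 of 19218 genes (0.536%) did, with a smallest edgeR adjusted p of 0.175. At an unadjusted p under 0.05 there were 8 of the 82, against 11.9% of all genes, and 3 (without sham replicate 3 at 4 months) to 19 (without Ang II replicate 4 at 6 months) when 1 library was left out. The count of calls depended on the tool: DESeq2 called 1 of the 82 and limma voom 5, where they called 2.83% and 4.1% of all genes. A fit over all 24 libraries can have a larger error. For Ang II against sham at 4 months, Gfm1 had an SE of 0.153 in such a fit. Its SE was 0.0582 in the fit of the 4-month libraries alone. The lack of edgeR calls therefore does not show that the Ang II effect was the same at each time.

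Within the sham group the genes lay somewhat higher at 4 than at 2 months. The median was 0.17 (12.2% higher) against -0.02 over all genes, with 75 of 82 above 0. None passed, where 1 of 16144 genes (0.00619%) did, and 19 had an unadjusted p under 0.05, against 15.8% of all genes. For 10 genes every 4-month library lay above every 2-month library, against 2.87% of all genes. Mrpl36, the counterpart of a small zinc-binding bacterial protein, had the smallest p and was picked from its value (0.30, SE 0.0669, edgeR adjusted p = 0.102). The factors had 0.13 to 0.24. DESeq2 called 6 and limma voom 3, all higher, where they called 1.47% and 0.793% of all genes higher. Brown adipocyte sums lay between 1917 and 3452 CPM at 2 months and between 2226 and 5743 CPM at 4 months. General adipocyte sums did not overlap, at 20635 to 26167 CPM and then 26775 to 30485 CPM, nor did smooth muscle sums, at 3435 to 6412 CPM and then 757 to 2541 CPM. The part of these markers in the result was not tested.

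Within the Ang II group the median over the same interval was 0.00, with 41 of 82 below 0. None passed, where 1 of 16367 genes (0.00611%) did and DESeq2 called none of the 82, and 1 had an unadjusted p under 0.05, against 10.7% of all genes. This was Mrps22 (25.8, 16.6, 23.7 and 21.9 CPM at 2 months; 17.9, 16, 17.9 and 17.9 CPM at 4 months; -0.32, SE 0.122, edgeR adjusted p = 0.423). Gfm1 had -0.24 (SE 0.106, edgeR adjusted p = 0.478). Without Ang II replicate 2 of the 2-month group, the lowest library there, the median was -0.11 with 76 below 0, and 25 of the 82 had an unadjusted p under 0.05, as did 2985 of 16546 genes. These comparisons share libraries with those of Ang II against sham: sham at 4 months was highest of the 4 earlier groups (4243 ± 351 CPM over the 82 genes), and sham at 2 months, Ang II at 2 months and Ang II at 4 months were 3687 ± 451, 3541 ± 534 and 3470.4 ± 156 CPM (SD, n = 4).

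**Figure D4:**
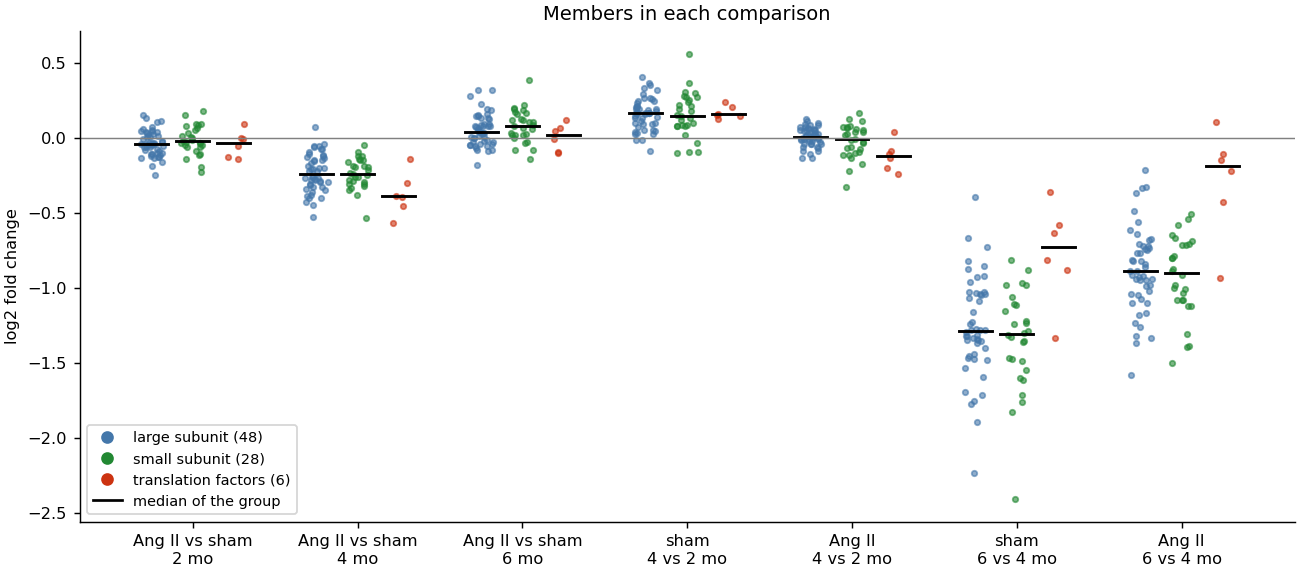
Log2 fold change of every gene (points; vertical axis) in 7 comparisons (horizontal axis), by large subunit, small subunit and translation factors, with the median of each as a bar. The 3 medians lie between -0.39 and -0.24 for Ang II against sham at 4 months and near 0 at 2 and 6 months, and the 6-month libraries lie far below those at 4 months, with factor medians of -0.72 and -0.18.

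Spread within groups was small for most of the 82. The SD of log2 CPM within the groups at 2 and 4 months had a median of 0.187. It was largest for Mrpl50 (0.304), Mrps15 (0.286) and Mrps22 (0.283). Mrpl50 stood at 34.7, 30.2, 32.5 and 66.0 CPM in sham at 2 months and at 41.1 to 45.4 CPM in sham at 4 months. Sham replicate 4 at 2 months was the high library for all 3, with Mrps15 at 106 CPM against 57.0 to 66.6 in the other sham libraries and Mrps22 at 35.3 CPM against 16.4 to 22.8.

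At 6 months the levels were lower than at 4 months in both treatments, while the mitochondrial chromosome took a larger share of the counts. In sham 81 of 82 fell, where 31.8% of 18199 genes were called lower, and the median was -1.28 (2.43-fold lower) against 0.02 over all genes. In Ang II aortas 74 of 82 fell, where 26.6% of 17725 genes were called lower, with a median of -0.88 (1.84-fold lower) against 0.03. Every 6-month library lay below every 4-month library for 81 of the 82 in sham, against 29.6% of all genes, and for 74 in Ang II, against 26.2%. Without Ang II replicate 4 at 6 months the median of the 82 in Ang II was -0.76.

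Among the genes with the smallest p were Mrpl20, the counterpart of bacterial protein L20, Mrpl2, near the site of peptide bond formation, and Mrpl38. In sham, Mrpl20 went from 62.8, 62.4, 64.3 and 49.9 CPM to 13.2, 11, 13.3 and 14.5 CPM (-2.24, SE 0.120, edgeR adjusted p = 7.39e-06). Mrpl2 had -1.76 and Mrpl38 -1.45 in sham. The other 5 named by p there, Mrpl32, Mrps15, Mrpl40, Mrps7 and Mrps5, lay between -1.83 and -1.32. In Ang II aortas Mrpl20 had -1.58, Mrps36 -1.39 (edgeR adjusted p = 5.18e-05), Mrps12, a protein of the decoding site, -1.39, and Mrps9, Mrpl32, Mrpl2, Mrpl41 and Mrps15 -1.32 to -1.03. Mrps36 had the largest fall in sham, -2.41, from 49.8 to 73.5 CPM down to 9.04 to 16.1 CPM. Its 2 named pseudogene copies had at most 22 reads in any library.

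The factors had smaller log2 fold changes than the ribosome proteins, a difference that was not tested: their median was -0.72 in sham, against -1.29 and -1.31 for large and small subunit, and -0.18 in Ang II, against -0.89 and -0.90. Tsfm was the exception, at -1.33 in sham and -0.93 in Ang II (edgeR adjusted p = 6.72e-05 and 0.00106). In sham all 6 passed, with Tufm at -0.88, Gfm1 at -0.81, Mtif2 at -0.63, Mtif3 at -0.57 and Gfm2 at -0.36. In Ang II Tufm also passed (-0.43, edgeR adjusted p = 0.0284), and Gfm1, Mtif2, Mtif3 and Gfm2 did not (-0.10, -0.15, -0.22 and 0.11). Gfm1 stood at 64 to 66.7 CPM in Ang II and 93.4 to 101 CPM in sham libraries at 4 months, and at 42 to 70.8 CPM and 51.8 to 70.5 CPM at 6 months. The remaining 4 that did not pass in Ang II were Mrpl3, Mrpl10, Mrpl33 and Mrpl50 (-0.36 to -0.21), and in sham Mrpl33 did not pass (-0.39, edgeR adjusted p = 0.0660). These were named after their values were seen. Mrpl33 was 19.3, 30.4, 22.5 and 23.7 CPM in sham at 4 months and 23.4, 19.7, 16.3 and 15.5 CPM in sham at 6 months, with overlap.

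Log2 fold changes between 4 and 6 months varied with transcript length. The 20 genes with the shortest principal transcripts (at most 866 bases) had a median of -1.51 in sham and -1.06 in Ang II. The 20 longest (at least 2877 bases) had -1.22 and -0.77. Across the 82 genes, which are not independent replicates, Spearman's rho of log2 fold change with length was 0.37 in sham and 0.39 in Ang II, given as a description. For Ang II against sham at 4 months rho with length was -0.02. With the mean level in CPM, rho of that log2 fold change was -0.49, so genes with higher levels tended to have lower values. For 6 against 4 months rho with the mean level was -0.13 in sham and 0.04 in Ang II. These too are descriptions.

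**Figure D5:**
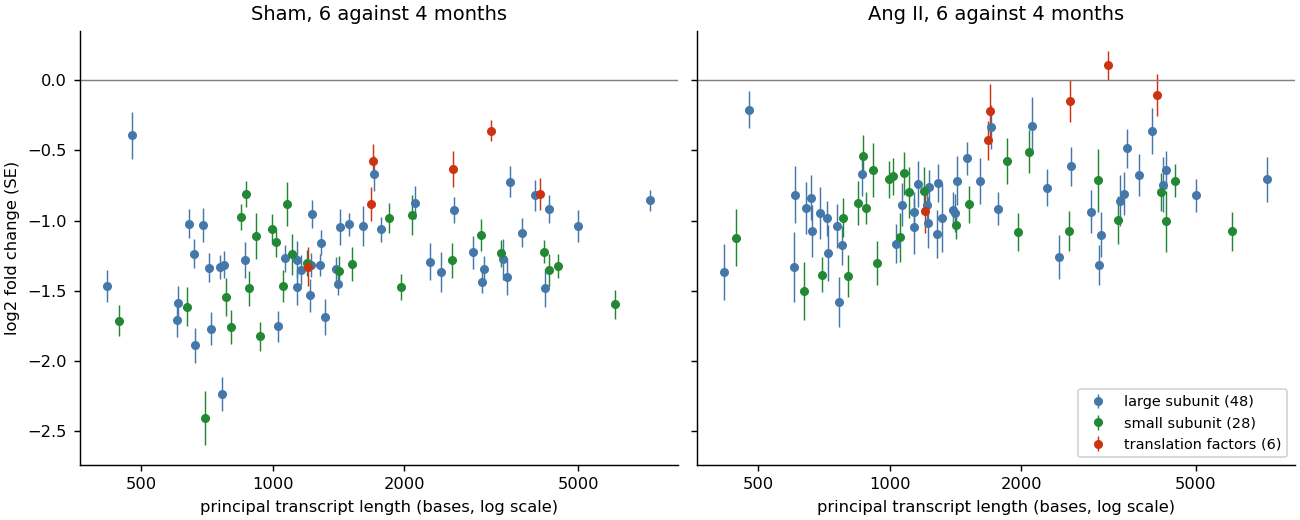
Log2 fold change with SE (vertical axis) against the length of the principal transcript in bases (horizontal axis, log scale) for 6 against 4 months in sham (left) and Ang II (right), coloured by group of genes. Tsfm lies below the other translation factors in both panels, and the 20 shortest genes have medians of -1.51 and -1.06.

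Other gene groups were lower across that interval too. Of 80 cytosolic ribosome protein genes 75 fell and 1 rose in sham, and 74 fell in Ang II (medians -0.92 and -1.15), and of the 10 genes for mitochondrial amount 10 and 8 fell (-1.09 and -0.76). Of 6 mitoribosome proteins with other names 6 and 5 fell (-1.21 and -0.87), and of 26 assembly factors 21 and 13 (-0.72 and -0.50). The tRNA synthetase list had smaller medians, -0.39 and -0.15. General adipocyte sums were 26775 to 30485 CPM in sham and 26772 to 32876 CPM in Ang II at 4 months, and 7672 to 10896 CPM and 8549.6 to 11499 CPM at 6 months, without overlap between the times. Of the 10 genes in that list 9 fell in each treatment (medians -1.50 and -1.30). Fibroblast markers rose in 5 of 6 cases in sham and 4 of 6 in Ang II (medians 1.04 and 0.84). The part of these markers in the result was not tested. Brown adipocyte markers had medians of -1.09 in sham, with 7 of 10 falling, and 0.32 in Ang II, with 3 rising and 2 falling.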

How the data were processed

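Raw read counts per gene, whole numbers for 37606 genes by 24 libraries, were deposited by the authors. Deposited as well were 3 tables of Ang II against sham, 1 per time, which give the authors' log2 fold changes, p-values and adjusted p-values. Tools named in the submitters' processing notes are DESeq2, featureCounts, STAR, cutadapt and FastQC, with mm10 as the build. Per the labels, libraries were made from total RNA with a messenger RNA kit. Tool versions, the annotation and whether counting used strand were not given in the sources used here. All 24 count columns were matched to samples by name.

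The counts were fitted with edgeR 4.0.16 under R 4.3.3: filterByExpr (minimum count 10, minimum total 15), TMM scaling, glmQLFit and glmQLFTest on all genes of the libraries compared, and Benjamini-Hochberg adjustment at 0.05. Only rows of the 82 genes and of the lists are printed. SE is the log2 fold change over the square root of F. The function was tested on simulated data. CPM of single libraries and sums are scaled by TMM over all 24 libraries, and fold changes over those compared. Lengths are of APPRIS principal transcripts in GENCODE vM21, in which 76 of the 82 genes have the deposited coordinates. Of these genes, 9 share over 20% of their exon bases with 1 other gene.

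The genes and lists were chosen with earlier results of these data known. The rule named the 6 factors in every comparison, genes past the threshold (at most 8 each way, by p), the 3 smallest p each way for Ang II against sham, 5 highest and 5 lowest levels per kilobase, the Mrps18 trio and the 3 largest within-group SDs. Of other lists up to 3 called genes were named. Alternatives were DESeq2 1.42.0 and its size factors, limma 3.58.1 (voom), other filters, chromosome M and ribosomal RNA set aside, a brown adipocyte covariate, all libraries in 1 fit, replicate numbers as a block, and leaving out libraries.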

Additional observations from a re-analysis of the deposited data

Results flagged for a closer look

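Within groups of 4, a library was marked where its gap to the nearest other exceeded Dixon's 95% critical share of the group's range. In 102 group values tested, 7 were marked, and chance marks about 1 in 20. The sum of the 82 genes was 2745 CPM in Ang II replicate 2 at 2 months, below 3740.4 to 3873 CPM in the other 3, and Mrpl34 was low in the same library (45.5 CPM against 74.2 to 78.9). Mtif2 was marked in 3 groups. It was high in sham replicate 1 at 2 months (41.4 CPM against 31.4 to 32.9), low in sham replicate 4 at 4 months (32.9 CPM against 44.2 to 44.9) and low in Ang II replicate 4 at 4 months (30.1 CPM against 31.8 to 32.0). In sham replicate 4 at 6 months, Gfm1 was high at 70.5 CPM against 51.8 to 54.3, and Mrpl16 at 22.8 CPM against 17.4 to 18.3.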

How the results depend on the processing

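At 4 months the number of the 82 genes called for Ang II against sham, 1 in the report, was 4 with DESeq2 size factors (0.856% of all genes called lower), 27 with DESeq2 (4.54%), 18 with limma voom (2.75%) and 5 with chromosome M and ribosomal RNA genes set aside (201 of 16081 genes). It was 0 with the brown adipocyte covariate, with all 24 libraries in 1 fit, without the libraries rich in airway transcripts (an alternative chosen after seeing the data) and when a size of at least 1 on the log2 scale was also asked for. With a replicate block it was 0, and the replicate block gave 0 calls over all genes at 4 months. Leaving out single libraries gave 0 to 28, with 28 without sham replicate 4 (3.34%). Over these settings 70 to 81 of the 82 values stayed below 0. The cause of these shifts was not tested. Over 2 and 4 months together the count of 0 became 2 with DESeq2 and 0 to 2 when single libraries were left out (2 without sham replicate 2 at 2 months, with 0.495% of all genes lower). For the interaction it became 1 with DESeq2 and 5 with limma voom. For sham, 4 against 2 months, it became 6 with DESeq2, 3 with limma voom and 0 to 4 without single libraries (4 without sham replicate 4 at 4 months, with 0.725% of all genes higher). For Ang II, 6 against 4 months, 25 of 74 had a size of at least 1 on the log2 scale. At 2 months the median changed sign with limma voom and without airway-rich libraries (both 0.05), with 0 calls in each.

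Deviations of same-numbered sham and Ang II libraries had correlations from -0.294 to 0.509. The best match was the own number for replicate 2 at 2, 4 and 6 months and for replicate 3 at 6 months, and not for the rest. With 4 libraries per group this cannot decide whether the numbers pair them. The replicate block moved no other count of the 82 genes by over 1.5 times. Of 1593 values of named genes under alternatives, none that passed changed sign, 61 that did not pass did, 18 lost and 23 gained a call. Relative to sham the summed level in Ang II at 4 months was 0.818 with TMM, 0.819 with size factors and 0.881 without chromosome M and ribosomal RNA genes. The low 6-month level was 0.435 of the 4-month one in sham with TMM, 0.457 and 0.420 with the others. In Ang II it was 0.553 with TMM, 0.583 with size factors and 0.477 without chromosome M and ribosomal RNA genes. Over all genes and all alternatives, single libraries left out included, calls of Ang II against sham ranged from 78 to 727 at 2 months (297 in the report), 0 to 993 at 4 months (114), 0 to 63 at 6 months (0) and 1 to 697 over 2 and 4 months (157). They ranged from 0 to 787 for the interaction (103), 0 to 852 in sham from 2 to 4 months (1), 0 to 266 in Ang II over that interval (1) and 7315 to 14665 in sham from 4 to 6 months (11711).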
